A study of Mus musculus with 22 samples.

Results

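Dentate granule cells are the principal neurons of the dentate gyrus, the hippocampal field that lies beside CA1. Their axons, the mossy fibres, run to hilar mossy cells and to CA3 pyramidal neurons, and new granule cells are added through adult life. The 6 genes described here, Prox1, Dsp, C1ql2, Lct, Tdo2 and Trpc6, are commonly used to mark mature granule cells, and were chosen by name: they are 6 of the 23361 genes in the expression matrix, and all 6 were among the 16978 genes tested. The tissue, by contrast, is labelled as the CA1 region, so the values below are levels of dentate markers in a CA1 dissection.

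The libraries were mRNA-seq of CA1 microdissected from 22 female mice, each an F1 of Swiss Webster x DBA/C57BL6, 1 library per mouse, with expression given as FPKM (mapped fragments scaled by transcript length and by the library's total). AL mice ate freely. CR mice were under calorie restriction, a ration set below the intake of AL mice with the reduction made in carbohydrate. Both diets ran from early adulthood, so mice of 15 months had been on theirs for longer than mice of 5 months. There were 5 AL and 5 CR mice of 5 months, and 6 AL and 6 CR mice of 15 months. The labels name no transgene or drug, and all mice shared the background and sex, so nothing here extends to males. Libraries are named below by group and by the replicate number of the labels, which starts at 0.

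The median FPKM of a library was 2.51 to 3.10, and 18281 to 19175 genes were above 0. Read totals are not held in the matrix, so the depth behind each FPKM is unknown. The 7 CA1 pyramidal neuron genes (Wfs1, Fibcd1, Mpped1, Gpr161, Pou3f1, Spink8 and Lefty1) summed to 88.7 to 511 FPKM over the 22 libraries. Each of them was above 0 in every library, but at unlike levels. In AL mice of 15 months Mpped1 and Wfs1 had medians of 104 and 80.4 FPKM. The medians of the other CA1 genes there were 0.543 (Lefty1) to 8.52 FPKM (Pou3f1), so the sum says little of those genes. The 6 dentate markers were also above 0 in every library, and their sum ran from 12.8 to 133 FPKM.

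C1ql2, a secreted C1q-like protein of mossy fibre synapses, had the highest level of the 6 in 20 of 22 libraries, with a mean at percentile 74.4 of all genes. Prox1, a homeobox transcription factor that granule cells need to keep their identity, had a mean of 9.17 FPKM (percentile 64.1). Trpc6, a calcium-permeable cation channel opened by diacylglycerol, averaged 7.13 FPKM (percentile 60.4).

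Lct, the intestinal lactase that also marks granule cells, averaged 4.72 FPKM, Dsp (desmoplakin, which ties desmosomes to intermediate filaments) 3.62 FPKM, and Tdo2, which opens the kynurenine pathway by oxidising tryptophan, 2.46 FPKM. The lowest level of the 6 belonged to Tdo2 in 11 libraries, to Dsp in 9 and to Lct in 2. At 5 months Tdo2 had the lowest median in both diets. In AL mice of 15 months the order of the medians became C1ql2, Trpc6, Prox1, Tdo2, Lct and Dsp. Of the 20 pairs of neighbours in the orders of the 4 groups, 17 had means closer than the larger of their SDs. The 3 others were Prox1 over Trpc6 in AL mice of 5 months, C1ql2 over Prox1 in CR mice of 5 months and Prox1 over Tdo2 in AL mice of 15 months.

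The range over mice differed greatly between the genes. Dsp had a highest level 786 times its lowest, from 0.0248 FPKM in CR 15 months replicate 0 to 19.5 FPKM in CR 15 months replicate 3. The corresponding ratio was 108 for Lct, 44.6 for C1ql2, 24.9 for Tdo2 and 17.7 for Prox1. Trpc6 varied least, 6-fold, from 3.06 FPKM in AL 5 months replicate 2 to 18.4 FPKM in CR 15 months replicate 3.

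**Figure D1:**
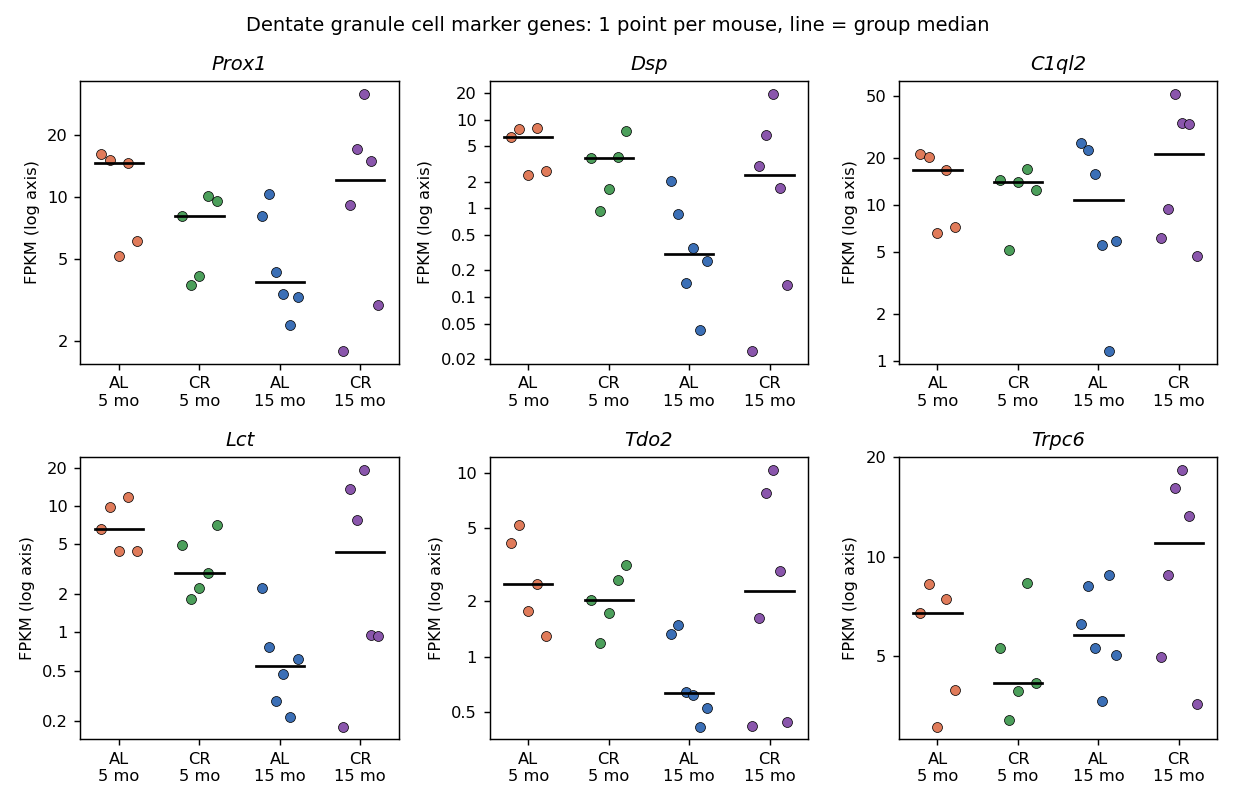
FPKM of the 6 dentate granule cell markers on log axes, 1 point per mouse (5, 5, 6 and 6 mice) with the group median as a line. All 6 AL mice of 15 months lie below all 5 AL mice of 5 months for Dsp and Lct, while CR mice of 15 months run from the bottom to the top of most panels.

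The first comparison asked how the markers differed between 15 and 5 months in AL mice. Dsp and Lct fell, and the other 4 did not pass the test (limma, Benjamini-Hochberg adjusted over 16978 genes, threshold 0.05). In bulk tissue, fewer cells of a type and less RNA per cell cannot be told apart. In this contrast 20.6% of all genes tested were called, 9.97% lower and 10.7% higher, so 2 of 6 stands against a background in which such calls were frequent.

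Dsp levels in AL mice of 5 months were 6.37, 7.77, 2.37, 8.10 and 2.65 FPKM. At 15 months the lowest was 0.0422, the median 0.306 and the highest 2.03 FPKM. Each older AL mouse was below every younger one, without overlap. The mean went from 5.45 ± 2.77 (SD, n = 5) to 0.617 ± 0.750 FPKM (SD, n = 6), and on the log2(FPKM + 0.1) scale the difference was -3.36 (SE 1.02, limma adjusted p = 0.0246). With a pseudocount of 1 the difference was -1.98. Without AL 5 months replicate 1, AL 5 months replicate 3 or AL 15 months replicate 4, the limma adjusted p of Dsp was 0.0570, 0.0521 and 0.0537.

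Lct levels in the same 5 younger mice were 6.57, 9.93, 4.42, 11.8 and 4.42 FPKM. The older 6 had a lowest value of 0.212, a median of 0.542 and a highest of 2.23 FPKM. Again the groups did not overlap, and only replicate 0 among the older mice exceeded 1 FPKM. The difference was -3.36 (SE 0.85, limma adjusted p = 0.00903), from a mean of 7.43 ± 3.33 (SD, n = 5) to 0.762 ± 0.747 FPKM (SD, n = 6). Groups that do not overlap were seen for 14.0% of all genes tested. Permuting the mean log2 values exactly (two-sided) gave p = 0.00433 for Dsp and for Lct, where the smallest p that 6 against 5 mice allows is 0.00216. The same exact permutation gave p = 0.0108 for Tdo2, 0.0498 for Prox1, 0.496 for C1ql2 and 0.745 for Trpc6, all unadjusted.

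Tdo2 in AL mice of 5 months was at 4.13, 5.19, 1.77, 2.49 and 1.29 FPKM. At 15 months its lowest value was 0.416, its median 0.631 and its highest 1.49 FPKM. All 6 older mice were under the younger median and 4 of 6 were under every younger mouse. The difference of -1.67 (SE 0.65) missed the threshold (limma adjusted p = 0.0699), and passed when the AL groups were fitted alone (0.0129).

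Prox1 was at 16.1, 15.0, 5.13, 14.6 and 6.08 FPKM in the younger mice, and had a lowest value of 2.39, a median of 3.84 and a highest of 10.3 FPKM in the older. Here too 4 of 6 older mice lay below every younger one, and the difference of -1.13 (SE 0.60) did not pass (limma adjusted p = 0.181). C1ql2 was spread from 1.16 to 25.0 FPKM in the older mice and from 6.64 to 21.3 FPKM in the younger, with a difference of -0.61 (SE 0.72, limma adjusted p = 0.576).

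Trpc6 gave the value nearest to 0, a difference of 0.11 (SE 0.38, limma adjusted p = 0.870). Younger mice averaged 5.90 ± 2.27 FPKM (SD, n = 5) and older mice 6.21 ± 1.96 FPKM (SD, n = 6). AL 15 months replicate 4 had the lowest C1ql2 (1.16 FPKM) and the lowest Tdo2 (0.416 FPKM) of all 22 libraries, yet the highest Trpc6 of its group, at 8.81 FPKM. Over the 6 markers the median log2 difference was -1.40, beside 0.00 over all genes tested.

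**Figure D2:**
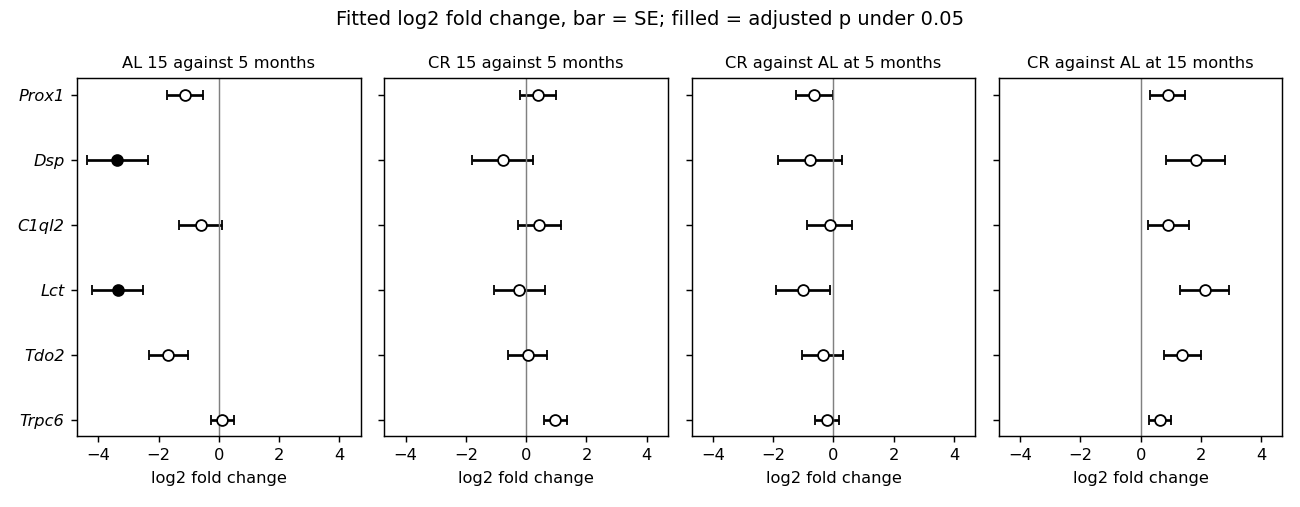
Log2 difference of each marker in the 4 pairwise comparisons, fitted by limma on log2(FPKM + 0.1), with bars of 1 SE and filled points for an adjusted p under 0.05. The 2 filled points are Dsp and Lct in AL 15 against 5 months, both at -3.36.

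The windows upstream of the members carry unlike sequence. RefSeq (GRCm38.p6) gave a window for 6 of 6 members, and 3 are printed because Dsp and Lct passed the test while Trpc6 had the difference nearest to 0 in AL mice. Each is the 250 bases before the start of the gene, read 5′ to 3′ on the gene's strand. Dsp lies on the plus strand of chromosome 13 from 38151294 to 38198577 and its window is chr13:38151044-38151293. Lct lies on the minus strand of chromosome 1 from 128284756 to 128328318, with its window at chr1:128328319-128328568. Trpc6 is on the plus strand of chromosome 9 from 8544142 to 8680741, with its window at chr9:8543892-8544141. Capitals mark matches, on either strand, to GGGCGG (GC box), CANNTG (E-box), TGACG (the core of a cAMP response element), TATAAA or CCAAT, which can overlap.
Dsp: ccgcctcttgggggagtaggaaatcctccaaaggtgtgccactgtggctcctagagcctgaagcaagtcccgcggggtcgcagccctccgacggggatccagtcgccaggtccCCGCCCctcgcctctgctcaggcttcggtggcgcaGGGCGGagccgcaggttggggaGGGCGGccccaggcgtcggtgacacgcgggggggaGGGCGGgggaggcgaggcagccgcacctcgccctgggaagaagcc
Lct: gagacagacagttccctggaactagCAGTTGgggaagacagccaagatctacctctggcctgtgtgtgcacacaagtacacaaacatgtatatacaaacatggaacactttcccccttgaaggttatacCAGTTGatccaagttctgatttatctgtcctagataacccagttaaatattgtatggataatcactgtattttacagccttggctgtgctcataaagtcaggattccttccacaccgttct
Trpc6: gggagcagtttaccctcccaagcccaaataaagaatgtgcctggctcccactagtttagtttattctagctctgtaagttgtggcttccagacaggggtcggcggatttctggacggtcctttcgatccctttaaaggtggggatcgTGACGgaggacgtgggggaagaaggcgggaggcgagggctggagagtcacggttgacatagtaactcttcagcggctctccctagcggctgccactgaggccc
The Dsp window had a GC content of 72.4% and 4 matches to GGGCGG. Lct, at 42.8% GC, had 2 matches to CANNTG and none to GGGCGG. Trpc6, at 56.4% GC, had 1 match to TGACG. Of 32851 mouse windows of this length, 32.7% held GGGCGG, 66.2% CANNTG, 17.8% TGACG, 12.4% TATAAA and 33.8% CCAAT, and the median GC content was 52.4%. A match is a description of the letters only.

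The other 3 members lie on chromosome 1 (Prox1, minus strand, 190118035 to 190170714, and C1ql2, plus strand, 120340582 to 120343174) and chromosome 3 (Tdo2, minus strand, 81957090 to 81976202), all on GRCm38.

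The second comparison asked whether the same age difference was seen in CR mice. None of the 6 markers passed the limma test, 1 of them (Trpc6) had an unadjusted p under 0.05, and over all genes tested 3.36% were called and 18.0% had an unadjusted p under 0.05. The median difference over the members was 0.23.

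Dsp in CR mice of 5 months was at 3.68, 0.931, 1.66, 3.77 and 7.36 FPKM, and at 15 months the lowest value was 0.0248, the median 2.36 and the highest 19.5 FPKM. Lct was at 4.90, 1.85, 2.23, 2.97 and 7.09 FPKM in the younger CR mice, and had a lowest value of 0.180, a median of 4.35 and a highest of 19.5 FPKM in the older. The older CR mice lay on both sides of the younger for Dsp and for Lct. The differences were -0.78 (SE 1.02, limma adjusted p = 0.735) for Dsp and -0.23 (SE 0.85, limma adjusted p = 0.921) for Lct.

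Trpc6 in CR mice of 5 months was at 5.28, 3.21, 3.91, 8.32 and 4.16 FPKM. Its lowest value at 15 months was 3.58, its median 11.04 and its highest 18.4 FPKM, and 4 of 6 older mice exceeded every younger one. The difference of 0.96 (SE 0.38) did not pass (limma adjusted p = 0.183). Prox1 differed by 0.39 (SE 0.60), C1ql2 by 0.44 (SE 0.72) and Tdo2 by 0.06 (SE 0.65), each less than its own SE.

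Within CR mice of 15 months single libraries held most of the extremes. Replicate 3 had 31.5 FPKM of Prox1, 10.4 FPKM of Tdo2 and 18.4 FPKM of Trpc6, the highest of all 22 libraries for each. Replicate 2 had the highest C1ql2, 51.6 FPKM. In replicate 0, Prox1 (1.78 FPKM), Dsp (0.0248 FPKM) and Lct (0.180 FPKM) were the lowest of the 22. Replicate 4 had 33.2 FPKM of C1ql2 and 14.9 FPKM of Prox1 but 1.71 FPKM of Dsp and 0.959 FPKM of Lct. The SD of log2(FPKM + 0.1) was larger at 15 than at 5 months for 6 of 6 members in CR mice, reaching 2.81 for Dsp, and for 4 of 6 in AL mice, where Tdo2 and Trpc6 were the others. These spreads were not tested.

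The third comparison, CR against AL at 5 months, addressed the effect of the diet in younger mice. All 6 differences were below 0 and none passed the test, with none of the 6 at an unadjusted p under 0.05. Over all genes tested 49.8% of differences were above 0. The markers varied together from mouse to mouse (below), so a direction shared by the 6 is not 6 separate results, here or in the comparisons that follow. The limma fit called 0% of all genes here, with 789 (4.65%) at an unadjusted p under 0.05. The widest was that of Lct, -1.004 (SE 0.89), with means of 3.81 ± 2.18 FPKM in CR and 7.43 ± 3.33 FPKM in AL mice (SD, n = 5 each, exact permutation p = 0.0794).

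The fourth comparison, CR against AL at 15 months, addressed the diet in older mice, and uses the same older AL and CR mice as the age comparisons above. All 6 differences were above 0, as were 49.6% of those of all genes, with a median of 1.14 beside 0.00 over all genes. None passed the limma test, which called 0.742% of all genes. Lct and Tdo2, 2 of the 6, had an unadjusted p under 0.05, as did 17.1% of all genes.

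For Lct, 5 of 6 CR mice were above the AL median and 3 of 6 were above every AL mouse, while replicate 0 was below every AL mouse. Its difference was 2.12 (SE 0.81, limma adjusted p = 0.190), with means of 7.18 ± 8.02 FPKM in CR and 0.762 ± 0.747 FPKM in AL mice (SD, n = 6 each). Leaving out 1 library at a time gave Lct differences of 1.57 to 2.80, with limma adjusted p from 0.0338 to 0.427. The highest, 2.80, was without CR 15 months replicate 0 and passed (limma adjusted p = 0.0338). Under 30 of 31 alternatives Lct did not pass. Dsp differed by 1.82 (SE 0.97, limma adjusted p = 0.346) and Tdo2 by 1.38 (SE 0.62, limma adjusted p = 0.260). C1ql2 (0.91), Prox1 (0.89) and Trpc6 (0.63) had smaller differences, and in each of the 6 genes the groups overlapped, as in all but 0.984% of genes tested.

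CR mice of 15 months were also set against AL mice of 5 months, which share libraries with the comparisons above. None of the members passed or had an unadjusted p under 0.05, while 3.12% of all genes were called and 19.3% were under 0.05 unadjusted. The values ran from -1.55 (SE 1.02) for Dsp and -1.24 (SE 0.85) for Lct, through -0.30 for Tdo2, -0.24 for Prox1 and 0.31 for C1ql2, to 0.74 (SE 0.38) for Trpc6. The difference between the age effects of the diets, tested as an interaction, was above 0 for all 6 and passed for none. It was above 0 for 50.7% of all genes. The interaction was 3.12 (SE 1.20) for Lct, with an unadjusted limma p of 0.0169 and an adjusted p of 0.628. Over all genes the interaction called 0%, with 1301 (7.66%) at an unadjusted p under 0.05. An age difference that passed in AL mice and not in CR mice is therefore not shown to differ between the diets.

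Over all 22 libraries the markers varied together from mouse to mouse, though not in every pair within each group. Pearson's r of log2(FPKM + 0.1) over the 22 libraries was 0.317 to 0.941 in the 15 pairs of members, with a median of 0.777. All points share a library and its normalisation between both genes. Dsp and Lct gave r = 0.941, Dsp and Tdo2 0.930, and Prox1 and Tdo2 0.928.

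After centring on the group means, r was 0.527 to 0.939. Of the 15 pairs, 13 had a permutation p under 0.05 after Benjamini-Hochberg adjustment over the 15 as measured, and 14 after centring, where values were permuted within groups. Spearman's rho was 0.364 to 0.942 as measured and gave the same counts, 13 and 14. Without the 2 libraries farthest from the median of the first gene of each pair, r was 0.353 to 0.917. The weakest pair was Lct with Trpc6 (r = 0.317, permutation p = 0.152), and Dsp with Trpc6 followed (r = 0.415). Within AL mice of 15 months, r of Trpc6 was -0.016 with Dsp, -0.018 with Lct and -0.109 with C1ql2. There it was 0.237 with Tdo2 and 0.262 with Prox1. Within CR mice of 15 months these pairs gave 0.680 to 0.970. Each of these values rests on 6 mice.

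**Figure D3:**
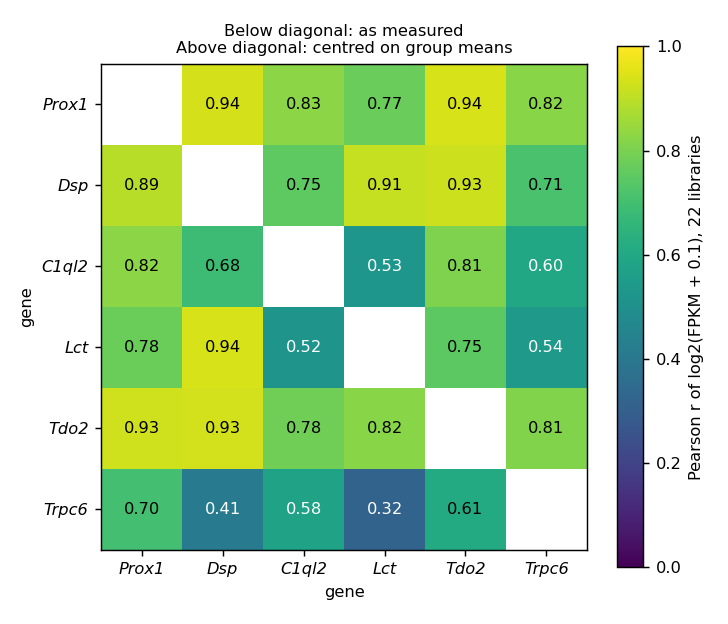
Pearson's r of log2(FPKM + 0.1) for each pair of markers over 22 libraries, as measured below the diagonal and centred on group means above it. As measured, the lowest values are those of Trpc6 with Lct (0.32) and with Dsp (0.41), and after centring they are those of Lct with C1ql2 (0.53) and with Trpc6 (0.54).

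Levels relative to Prox1 were computed because of these relations, after the values had been seen. Dsp stood at 0.395 to 0.553 of Prox1 in AL mice of 5 months and at 0.0176 to 0.253 in those of 15 months. Lct stood at 0.407 to 0.861 of Prox1 in the younger and 0.0665 to 0.278 in the older AL mice. For neither ratio did the groups overlap.

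For Trpc6 over Prox1 the older AL mice were the higher, 0.783 to 3.68 against 0.418 to 0.651. In log2 terms the AL age differences were -2.23 for Dsp over Prox1 (exact permutation p = 0.00433), -2.22 for Lct over Prox1 (exact p = 0.00216) and 1.24 for Trpc6 over Prox1 (exact p = 0.00649). Over the 25 ratio comparisons made, each of these had an adjusted p of 0.0541 and none passed.

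In CR mice Trpc6 over Prox1 was 0.434 to 0.947 at 5 months and 0.583 to 2.79 at 15 months. Dsp over Prox1 was 0.251 to 0.769 at 5 months and 0.0139 to 0.619 at 15 months in the same mice, and the ages overlapped for both ratios. Lct over Trpc6 was 0.973 to 1.58 in AL mice of 5 months, 0.357 to 1.71 in CR mice of 5 months, 0.0241 to 0.355 in AL mice of 15 months and 0.0362 to 1.56 in CR mice of 15 months. The members thus did not keep 1 ratio to each other across the libraries.

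**Figure D4:**
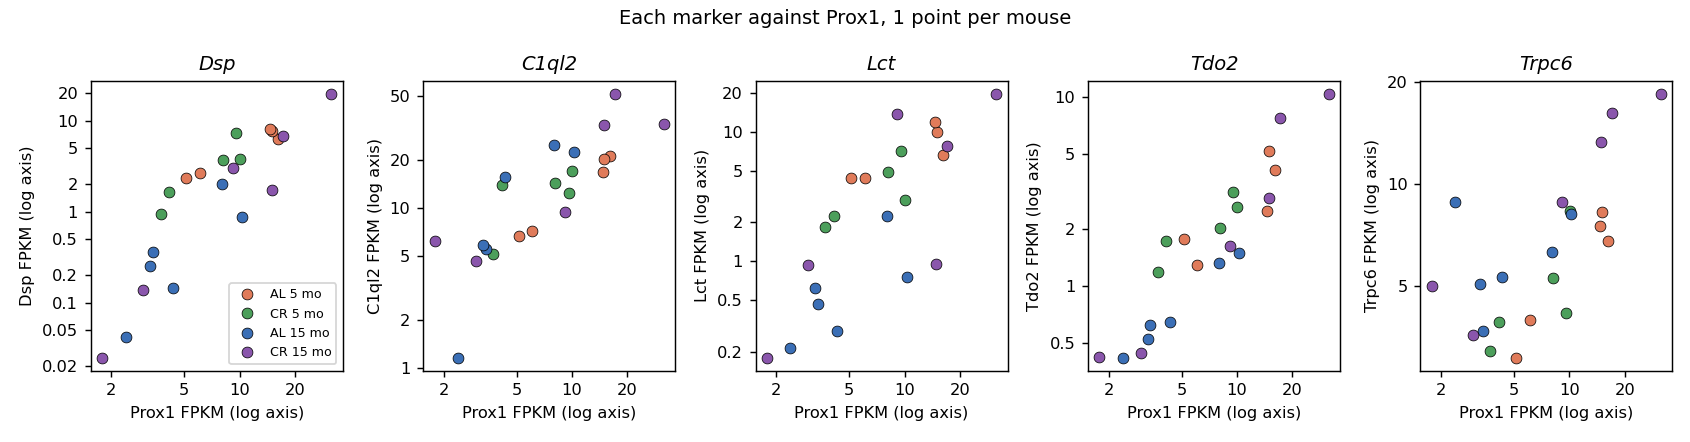
FPKM of each other marker against that of Prox1, both on log axes, 1 point per mouse coloured by group. In the Dsp and Lct panels AL 15 months replicates 0, 1 and 2 lie under mice of 5 months with like Prox1. Replicates 3, 4 and 5 had 3.38, 2.39 and 3.27 FPKM of Prox1, less than any mouse of 5 months (lowest 3.71 FPKM). Trpc6 of the AL mice of 15 months is at least 0.783 of Prox1, above the 0.651 that AL mice of 5 months reach.

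Of the 13833 other genes with a mean of at least 1 FPKM, those whose levels followed the mean standardised level of the 6 members most closely included Il1r1, Sema5a, Ehd1, Sipa1l2, Kbtbd11, Maml2, Dock10 and Cecr2. Over 22 libraries r was 0.959 for Il1r1, the interleukin 1 receptor, and 0.913 for Cecr2, with the other named genes between them, as a description. After centring on groups it was 0.952 for Il1r1 and 0.892 for Maml2, the lowest of those named. Dock10 was also in the list of other dentate granule cell genes. The named genes were picked by their relation to the members over the same libraries, so a direction shared with them follows from the choice. In AL mice all 8 named genes had a difference between 15 and 5 months below 0. Of the 8, 1, Ehd1 (an endocytic recycling protein), passed with -0.74 (limma adjusted p = 0.0378), where 9.97% of all genes were called lower. None of the 8 passed in CR against AL at 15 months.

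A further 8 dentate granule cell genes gave 1 call in AL mice. With age 1 of 8 fell, Ahcyl2 with a log2 difference of -0.39, and none rose. Over all genes tested 9.97% were called lower and 10.7% higher, the background for this count and for the list counts that follow. Dock10 differed by -0.71 (SE 0.35), Stxbp6 by 0.01 (SE 0.37), Plk5 by 0.43 (SE 0.58) and Glis3 by -0.29 (SE 0.39), none passing. Their summed level was 112 to 204 FPKM in AL mice of 5 months and 97.6 to 161 FPKM at 15 months. In CR mice it was 92.5 to 185 FPKM at 5 and 112 to 277 FPKM at 15 months.

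Of the 6 tested immature granule cell genes, Dcx, the microtubule protein of migrating neurons, rose in AL mice by 1.34 (SE 0.26, limma adjusted p = 0.00157), and Igfbpl1 (-1.87) and Draxin (-0.67) fell. Neurod1 (-0.29), Calb2 (0.88) and Sox11 (0.44) did not pass, and Eomes was below the filter. None of the 3 mossy cell genes (Drd2, Csf2rb2 and Calcrl) passed. Among the relatives of the members, Prox2 rose and C1ql1 and Trpc4 fell.

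Markers of other cells and fields moved in the same AL comparison, where 9.97% of all genes tested were called lower and 10.7% higher. Of 7 CA1 genes 5 fell, with log2 differences of -3.35 for Fibcd1, -1.85 for Gpr161, -2.02 for Pou3f1, -3.81 for Spink8 and -4.27 for Lefty1, while Wfs1 (0.63) and Mpped1 (-0.16) did not pass. The summed CA1 level was 234 to 511 FPKM in AL mice of 5 months and 174 to 280 FPKM at 15 months. In CR mice it was 303 to 452 and 88.7 to 438 FPKM. None of the 7 was at 0 throughout a group.

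Of 7 genes of neocortex and subiculum 3 rose, Tbr1 by 1.47, Rorb by 0.88 and Foxp2 by 1.79, and the summed level was 47.8 to 79.9 FPKM in younger and 54.6 to 141 FPKM in older AL mice (34.9 to 67.7 and 41.3 to 149 FPKM in CR mice). Of 4 CA3 genes Coch rose (2.58) and Iyd fell (-2.21), with Bok (-0.12) and Grik4 (-0.50) not passing, and the sum was 22.5 to 82.9 FPKM and 40.5 to 60.4 FPKM. Choroid plexus genes fell in 6 of 8 cases, and their sum was 39.6 to 362 FPKM at 5 and 3.82 to 26.0 FPKM at 15 months. The part of these tissues in the dissections in the change of Dsp and Lct was not tested.

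The remaining lists also held calls in the AL age comparison, not all of them named here, where 20.6% of all genes tested were called. Of 5 CA2 genes 2 fell (Amigo2 and Rgs14), of 3 thalamic genes Lef1 rose, and of 5 interneuron genes, included since interneurons can express Prox1, Reln rose and Cck fell. Gfap of 4 astrocyte genes and Tmem119 of 4 microglial genes fell, and no pericyte, meningeal or endothelial gene passed. In CR mice the age comparison called 10 list genes, all lower: 7 of choroid plexus, 2 of CA2 and Igfbpl1. Neither comparison of CR with AL at the same age called any gene of the 18 lists.

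**Figure D5:**
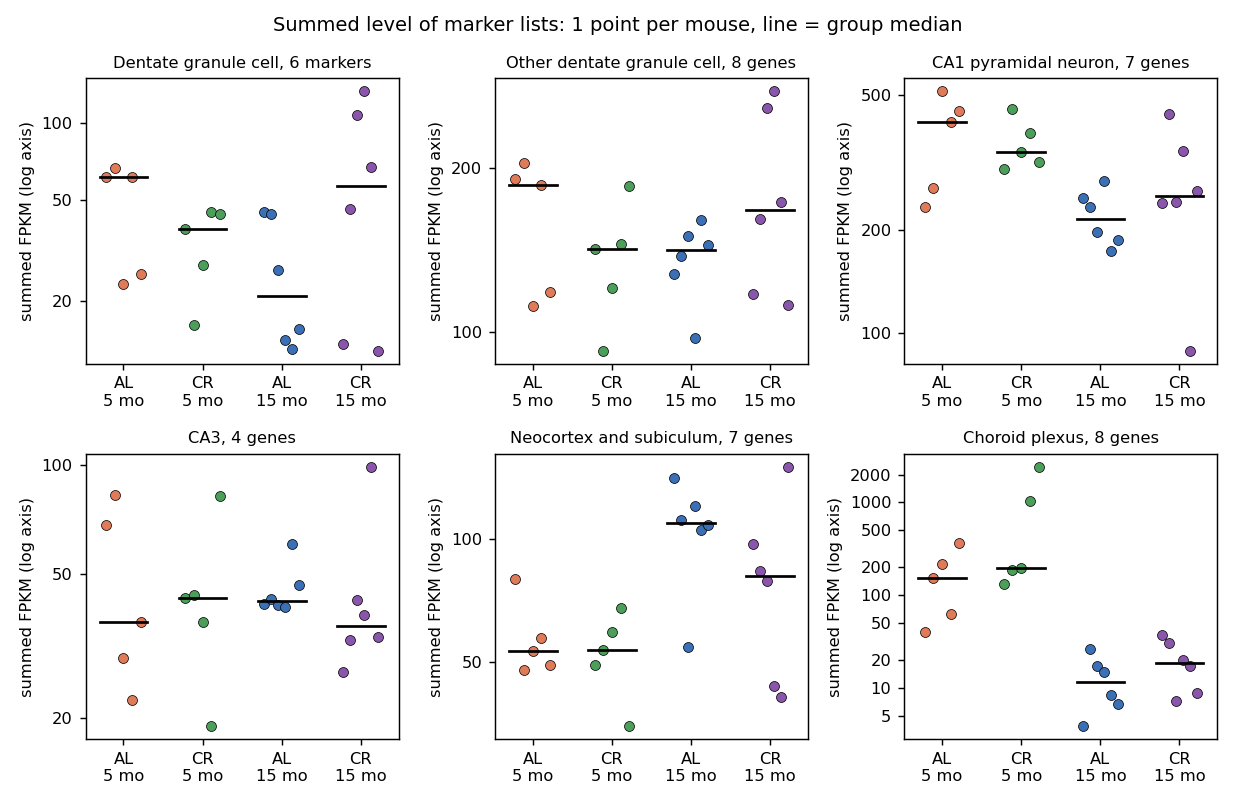
Summed FPKM of 6 marker lists on log axes, 1 point per mouse with the group median as a line. Choroid plexus sums are lower, CA1 sums mostly lower and neocortex and subiculum sums mostly higher in AL mice of 15 months than of 5 months, beside the 6 dentate markers in the first panel.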

How the data were processed

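CA1 was microdissected from 22 mice and mRNA was sequenced as paired ends. The authors aligned reads to mm10 with TopHat, removed likely duplicates with Picard and estimated expression with Cufflinks, with corrections for fragment bias and multiply mapped reads (versions and the annotation release are not given in the sources used here). The deposited values are FPKM per gene, 1 column per mouse, and hold no read counts. The depth of each single library is therefore unknown, and no counting intervals are given. Fold changes of low genes are understated by the pseudocount.

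Genes with a mean of at least 0.1 FPKM (16978 of 23361) were taken as log2(FPKM + 0.1) and fitted in limma 3.58.1 (R 4.3.3), with 4 groups in 1 model, and p-values were adjusted by Benjamini-Hochberg over all genes tested. For single values, exact permutation over mice (two-sided) was used, and for correlations 100000 permutations (Python 3.11.15, scipy 1.17.1). The limma step was tested on simulated data. Each limma p-value rests on 1 spread per gene, estimated over the mice of all 4 groups. Those of the AL age comparison thus also carry the spread of the CR mice. Permutation p-values between groups rest only on the mice of the 2 groups compared. Named genes were the 6 members, the 10 genes that followed them most closely, the first 4 genes of 4 lists, and genes that passed the test or belong to a list, the last named after their values were seen. Some of these genes are not reported here. The members and lists were chosen with earlier results of these data known. Gene coordinates are from GENCODE M21 (GRCm38, the same assembly as mm10) and upstream windows from RefSeq.

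The labels give the same replicate numbers in each group. Deviations of same-numbered libraries from their group means correlated at -0.139 to 0.163 over 31 pairs, and 2 pairs were above 0.1, so the numbers were not taken to pair mice. Alternatives were other pseudocounts (0.01 and 1), other filters and scalings, separate fits, the replicate block and leaving out each library.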

Additional observations from a re-analysis of the deposited data

Results flagged for a closer look

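In CR mice of 15 months, Dsp in replicate 3 was 19.5 FPKM and stood apart from the other 5 mice of its group, the nearest of which was at 6.76 FPKM. In AL mice of 15 months, Lct in replicate 0 was 2.23 FPKM and stood apart from its group, whose next highest mouse was at 0.761 FPKM. These are 2 of 24 combinations of gene and group examined with Dixon's criterion on FPKM, not on the log2 scale of the tests. Its rate of about 1 flag in 20 by chance is for normally distributed values, which FPKM need not be.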

How the results depend on the processing

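The members called in AL 15 against 5 months numbered 2, and 3 when the 2 groups were fitted alone (Tdo2 added, limma adjusted p = 0.0129). With the replicate number as a block, a pairing that the check of deviations did not bear out, 1 was called (Lct), and Dsp had -3.04 (adjusted p = 0.0532). Leaving out 1 library gave 1 to 3: Dsp missed the threshold without AL 5 months replicate 1 (adjusted p = 0.0570), AL 5 months replicate 3 (0.0521) or AL 15 months replicate 4 (0.0537), and Tdo2 passed without CR 15 months replicate 0 (0.0462), replicate 3 (0.0418) or replicate 5 (0.0479). Lct stayed past the threshold in AL mice under all 31 alternatives, with differences of -3.71 to -2.25. Those of Dsp were -3.84 to -1.98, the smallest in size with a pseudocount of 1 (adjusted p = 0.0265). For CR against AL at 15 months, leaving out 1 library gave 0 to 1 members called.

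Several differences of members that did not pass turned direction. With a pseudocount of 1, Lct in CR 15 against 5 months was 0.10. Leaving out single libraries gave -0.10 to 0.25 for Trpc6 in AL 15 against 5 months, -0.78 to 0.44 for Lct and -0.39 to 0.48 for Tdo2 in CR 15 against 5 months, and -0.36 to 0.16 for C1ql2 in CR against AL at 5 months. For CR 15 against AL 5 months the ranges were -0.61 to 0.20 for Prox1, -0.032 to 0.65 for C1ql2 and -0.75 to 0.12 for Tdo2. Others that did not pass moved by over 1.5 times without turning, among them C1ql2 in AL 15 against 5 months (-0.92 to -0.056, the latter without AL 15 months replicate 4), Dsp (-1.49 to -0.028) and Prox1 (0.021 to 0.83) in CR 15 against 5 months, and C1ql2 in CR against AL at 15 months (0.36 to 1.26). The causes were not tested. Of the member differences recomputed, 1081 kept direction and side of the threshold, 20 turned direction, 5 newly passed and 4 newly missed it. Without read totals, levels under 0.1 FPKM, as of Dsp in 2 libraries, have unknown precision.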

Other observations

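Wfs1, Dcn, Iyd and Coch, genes known to differ in level along the long axis of the hippocampus, were looked at after the values of the members had been seen. Wfs1 was at 33.7 to 88.2 FPKM in AL mice of 5 months and 70.2 to 106 FPKM at 15 months, and at 33.8 to 48.3 and 24.7 to 149.99 FPKM in CR mice. Iyd was at 0.887 to 6.63 FPKM in younger and 0.216 to 0.500 FPKM in older AL mice, without overlap, and at 0.301 to 3.75 and 0.166 to 1.56 FPKM in CR mice. Coch was at 1.13 to 2.08 and 3.17 to 25.8 FPKM in AL mice, also without overlap, and at 1.38 to 2.56 and 0.633 to 7.13 FPKM in CR mice. The AL ages did not overlap for 14.0% of all genes tested. Dcn overlapped in all groups, from 5.51 FPKM to 121 FPKM.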
